A study of Nematostella vectensis with 30 samples.

Results

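The question addressed here was which arms of which miRNAs were recovered with NveAGO1, 1 of the 2 Argonaute proteins of the sea anemone Nematostella vectensis, in adult males. Small RNAs were sequenced from NveAGO1 immunoprecipitations (IPs) and from IPs with rabbit IgG, the negative control, and the 4 libraries of this comparison were 2 NveAGO1 IPs and 2 IgG IPs. They were chosen by the stage and antibody in the labels, out of 18 IP libraries of 3 stages and 30 samples in the whole series. All animals were adult males of the laboratory anemone with no genetic change or treatment named, 4 months old, frozen and lysed before the IP. NveAGO1 was captured with a polyclonal rabbit antibody raised for the study, and each IP was done on 2 separate biological samples. Whole animals were used, so more cells that express a miRNA and more of it per cell cannot be told apart. The deposited values were raw read counts for 255 miRNA arms. These were 138 guides, of which 86 came from newly annotated miRNAs, and 117 stars, of which 85 did.

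As background, a miRNA precursor is diced into a short duplex of which an Argonaute keeps 1 strand, the guide, while the other strand, the star, is usually released and degraded. The seed, bases 2 to 8 of the guide counted from its 5′ end, leads the pairing with target transcripts. In sea anemones miRNAs often pair with their targets along nearly their whole length, and the Argonaute can then cut the target. miR-100 belongs to a miRNA family found both in cnidarians and in bilaterians, whereas most other sea anemone miRNAs are known from cnidarians only.

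The arms on which the results turn are printed 5′ to 3′ as deposited, with the seed in capitals. Newly annotated miRNAs are called by the scaffold of their precursor. The first set holds 9 abundant guides that were higher in the NveAGO1 IPs than in IgG, followed by the scaffold 168 guide, which had few counts with NveAGO1 and 0 with IgG.
miR-100-5p: gACCCGUAgauccgaacuugug
miR-2023-3p: aAAGAAGUacaagugguaggg
scaffold 22 guide: aAGGUGACcucgaucuucaugau
miR-2025-3p: uUUUUUAGcccgcggaaguugu
miR-2026-5p: uUUCAAAUgucuacugaugga
scaffold 214 guide: uCUUCGGUcuuccucugcuga
miR-2040b-3p: uUCGUCUCguaacugcccugaag
miR-9413: uAAAAGUGaucagugguaaggu
miR-9422: uGACAGAAgauagaagcgcuga
scaffold 168 guide: aGAUGGGAcucaguguaaagagu

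The second set holds guides that reached high counts in IgG or whose ratio to IgG was small, and a close relative of miR-2040b-3p.
miR-2024e-3p: uUGCACAUuaccaauauucuga
miR-2024f-3p: uUGCACAUcaccaauguucuga
miR-2028-5p: uAAUGUUCcugcuuguuccua
miR-2040a-3p: uUUGUCUCguaacugcccugaag

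The third set gives both arms of the 4 miRNAs whose star to guide ratio passed a test as higher with NveAGO1 than with IgG.
miR-2024a-5p (star): aAAAUAUCgguguuggguaaaa
miR-2024a-3p (guide): uUACACAGuaccgauauuguga
miR-2029-5p (star): uACGCAAUcccuagguuaccau
miR-2029-3p (guide): gGUAAACUauggauugcgcuuc
miR-2042-5p (star): uUAUAAAUcauccuugcacuac
miR-2042-3p (guide): cGUACAUUgaugauuuaugaag
scaffold 21 star: uCCGUGUCgcgagucuguucu
scaffold 21 guide: aACAGACUcgcgacacggau

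The newly annotated precursors named here lie at 1210379 to 1210435 on the minus strand of scaffold 22 (intergenic), 58850 to 58904 on the plus strand of scaffold 214 (intron), 256060 to 256114 on the plus strand of scaffold 168 (intron) and 728098 to 728151 on the plus strand of scaffold 21 (intron). Among the known ones, miR-100 lies at 122012 to 122095 of scaffold 82 and miR-2023 at 142038 to 142130 of scaffold 294, both intergenic. The miR-2029 precursor lies in an intron at 157640 to 157736 of scaffold 83, miR-2042 in an intron at 5526 to 5613 of scaffold 231 and miR-2024a between genes at 87172 to 87234 of scaffold 126. Positions are those of the study's lists, and the genome build is not given in the sources used here.

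miRNAs made up a far larger part of the reads in the NveAGO1 IPs than in the IgG IPs. Of 8729294 and 5333970 genome-mapped reads in the NveAGO1 IPs, 27.1% and 17.1% were counted on miRNA arms (Wilson 95% intervals 27.0% to 27.1% and 17% to 17.1%), against 0.559% and 0.517% of 4103341 and 1924944 genome-mapped reads in the IgG IPs (0.552% to 0.566% and 0.507% to 0.527%). Both NveAGO1 libraries stood above both IgG libraries. The means were 22.1% ± 7.06 for NveAGO1 and 0.538% ± 0.0298 for IgG (SD, n = 2 each), a 41-fold difference with a two-sided exact permutation p of 0.333, the smallest that 2 against 2 libraries allow. Intervals cover counting error only. The sum over arms is not limited to the mapped reads, and in primary polyps the arms of 1 NveAGO1 IP summed to 101% of them.

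Depth differed between the groups. The NveAGO1 IPs held 2361840 and 910399 miRNA counts, against 22936 and 9948 in the IgG IPs, and 189 and 171 arms were detected with NveAGO1 against 117 and 95 with IgG. In 1 IgG library, the second, the study lists the same number for mapped and for unmapped reads, and mapped reads were 5.99% of all its reads, against 15.6% in the first. Replicate libraries differed by more than counting noise (chi-square of 133610 on 150 degrees of freedom for NveAGO1 and 1250 on 67 for IgG), so none was treated as a second deposit of another. Across 196 arms, which are not independent replicates, Pearson's r of log2(CPM + 1) was 0.956 between the NveAGO1 IPs and 0.945 between the IgG IPs, against 0.789 to 0.853 between NveAGO1 and IgG and 0.824 to 0.865 between NveAGO2 and IgG. CPM is counts per 1000000 genome-mapped reads.

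A pair of guides supplied most of the miRNA counts with NveAGO1. miR-100-5p and miR-2023-3p together took 88.1% and 82.2% of the miRNA counts in the NveAGO1 IPs. miR-100-5p alone took 58.2% and 39.7% of the miRNA counts in the NveAGO1 IPs, against 40.6% and 26.5% in the IgG IPs. miR-2023-3p took 29.9% and 42.5% with NveAGO1, against 16.9% and 18.4% with IgG. The order of this pair differed between the NveAGO1 replicates. The shares of miR-2023-3p did not overlap between the groups, whereas those of miR-100-5p did. The reverse held for miR-2024e-3p, which took 0.771% and 1.19% with NveAGO1 and 17.7% and 29.3% with IgG.

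Per genome-mapped read, 101 of the 196 arms tested were higher in the NveAGO1 IPs than in IgG and 0 were lower (edgeR quasi-likelihood test on all 18 IP libraries, Benjamini-Hochberg adjusted p under 0.05). That is 51.5% of the arms tested. Of these 196 arms, 19 had 0 counts in all 4 libraries compared, passed the count filter through other libraries and could not be called. In both IgG libraries 76 of the 196 arms had 0 counts, these 19 among them, and could not be lower than IgG or lie below it. Among guides, 75 of 134 were higher (56%), and among stars 26 of 62 (41.9%). The study kept guides in part by enrichment over IgG, so the guide count is not independent of that choice. DESeq2 on the same scale called 97 higher, of which 91 were among the 101, and 0 lower, and 0 arms were lower at an unadjusted p under 0.05 in edgeR. Both NveAGO1 libraries lay above both IgG libraries for 133 arms (67.9%) and below them for 3 (1.53%), and 100 of the 101 called arms were among the 133. Without the first IgG library 60 arms were called, and 53 of the 101 (41 guides and 12 stars) were called whichever single library was left out.

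The direction depended on what a library was scaled to. The median log2 fold change over all 196 arms was 3.86 per genome-mapped read, 2.39 with TMM factors on the miRNA counts and 0.00 per miRNA count. On the TMM scale 53 arms were higher (27%) and 4 lower (2.04%). Per miRNA count, where each library is set to its own miRNA total, 0 arms were higher (1 at an unadjusted p under 0.05) and 42 were lower (21.4%). Of the 101 called arms, 53 stayed above 0 and 48 fell below 0 on that scale. The fold changes given for single arms are per genome-mapped read, most with an approximate standard error (SE). A change of sign per miRNA count is stated beside them. Each SE is the absolute log2 fold change divided by the square root of the F statistic of the edgeR test.

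**Figure D1:**
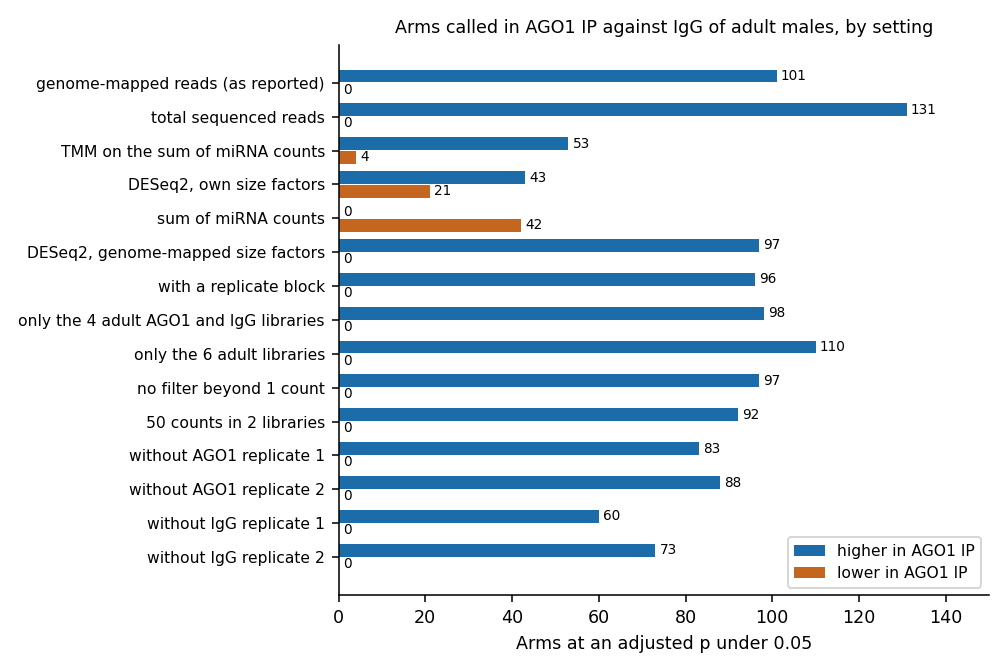
Number of arms called higher (blue) or lower (orange) in the NveAGO1 IP than in IgG of adult males at an adjusted p under 0.05, on the x axis, for the genome-mapped scale (top) and each other setting (rows). The 101 arms higher per genome-mapped read compare with 53 on the TMM scale and 0 per miRNA count, where 42 were lower.

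The most abundant of the guides called higher are described first, and abundant guides that passed no threshold, such as miR-2024e-3p, follow further on. miR-100-5p had 157506 and 67759.7 CPM in the NveAGO1 IPs, against 2268 and 1367 CPM in the IgG IPs. The 2 groups were well apart, with a log2 fold change of 5.95 ± 1.07 (SE) and an adjusted p of 4.38e-05. miR-2023-3p, known from other sea anemones and corals too, had 80984 and 72483 CPM with NveAGO1, against 942 and 952 CPM with IgG. The replicates nearly coincided and the log2 fold change was 6.34 ± 1.01 (adjusted p = 2.77e-05). Per miRNA count both guides kept a positive log2 fold change, 0.54 and 1.03, neither past the threshold (adjusted p = 0.830 and 0.347).

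A newly annotated guide followed these in level. The scaffold 22 guide had 3926 and 5802 CPM in the NveAGO1 IPs, against 68.7 and 35.8 CPM in the IgG IPs. No IgG value came near the NveAGO1 values, and the log2 fold change was 6.54 ± 1.25 (adjusted p = 9.87e-05). With NveAGO2 it had 66.7 and 69.2 CPM. The scaffold 214 guide had 2169 and 2527 CPM with NveAGO1 and 30.2 and 19.7 CPM with IgG, a log2 fold change of 6.55 ± 1.17 (adjusted p = 4.38e-05). Per miRNA count these 2 guides stood at 1.32 and 1.29 on the log2 scale.

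For miR-2025-3p and miR-2026-5p the sign depended on the scale. miR-2025-3p had 5312 and 3296 CPM with NveAGO1, against 174 and 122 CPM with IgG, a log2 fold change of 4.86 ± 0.95 (adjusted p = 9.87e-05) that became -0.50 per miRNA count. miR-2026-5p had 5049 and 1928 CPM with NveAGO1 and 199 and 287 CPM with IgG. Its NveAGO1 replicates were farther apart, the groups did not overlap, and the log2 fold change of 3.84 ± 1.02 (adjusted p = 0.00182) became -1.61 per miRNA count and missed the threshold without the first IgG library (adjusted p = 0.0506).

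The guides of the miR-2040 pair, which differ within the seed and could share reads, were both higher per genome-mapped read, while per miRNA count miR-2040a-3p was lower, and the difference between their folds was not tested. miR-2040b-3p had 2354 and 1618 CPM in the NveAGO1 IPs, against 31.9 and 25.5 CPM in the IgG IPs, a log2 fold change of 6.11 ± 1.06 (adjusted p = 4.38e-05). miR-2040a-3p had 226 and 313 CPM in the NveAGO1 IPs and 51.2 and 49.9 CPM in the IgG IPs. The groups of miR-2040a-3p were apart as well, but its log2 fold change was 2.41 ± 0.90 (adjusted p = 0.0231). It became -2.82 per miRNA count, where it was called lower, and it missed the threshold without the second NveAGO1 library (adjusted p = 0.0674), the first IgG library (0.119) or the second (0.106). In the NveAGO2 IPs the order of the pair was the other way round, with 946 and 1580.4 CPM for miR-2040a-3p and 250.4 and 182 CPM for miR-2040b-3p.

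Several less abundant known guides had ratios to IgG of similar size. miR-9413 had 1656 and 2177 CPM with NveAGO1, against 17.8 and 19.2 CPM with IgG, and the log2 fold change was 6.69 ± 1.30 (adjusted p = 9.87e-05). miR-9422 had 600.3 and 1432 CPM in the NveAGO1 IPs and 16.6 and 21.3 CPM in the IgG IPs, with a log2 fold change of 5.75. miR-9425, whose precursor lies in the untranslated part of an exon, had 632 and 374 CPM with NveAGO1 and 6.34 and 7.27 CPM with IgG, with a log2 fold change of 6.21. In all 3 both NveAGO1 libraries were far above both IgG libraries, and all 3 stayed above 0 per miRNA count (1.45, 0.58 and 0.84). miR-9424a (453 and 874 CPM with NveAGO1, 26.1 and 17.1 CPM with IgG) and miR-9446 (64.7 and 105 CPM with NveAGO1, 2.68 and 2.08 CPM with IgG) were also higher, with log2 fold changes of 4.93 and 5.12 that became -0.25 and -0.08 per miRNA count.

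Other known guides were higher too. miR-2022-3p, which occurs in stinging cells and is shared among cnidarians, had 275 and 176 CPM with NveAGO1 and 4.87 and 3.12 CPM with IgG (log2 fold change 5.79 ± 1.03, adjusted p = 4.38e-05). miR-2030-5p had 406 and 326 CPM in the NveAGO1 IPs and 16.8 and 7.27 CPM in the IgG IPs, a log2 fold change of 4.91 ± 0.97 that became -0.41 per miRNA count. miR-2037-3p had 656 and 112 CPM with NveAGO1, against 3.90 and 6.75 CPM with IgG. Its NveAGO1 replicates were 5.87-fold apart, but both lay above IgG, and the log2 fold change of 6.19 ± 1.28 kept an adjusted p of at most 0.0134 whichever library was left out.

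**Figure D2:**
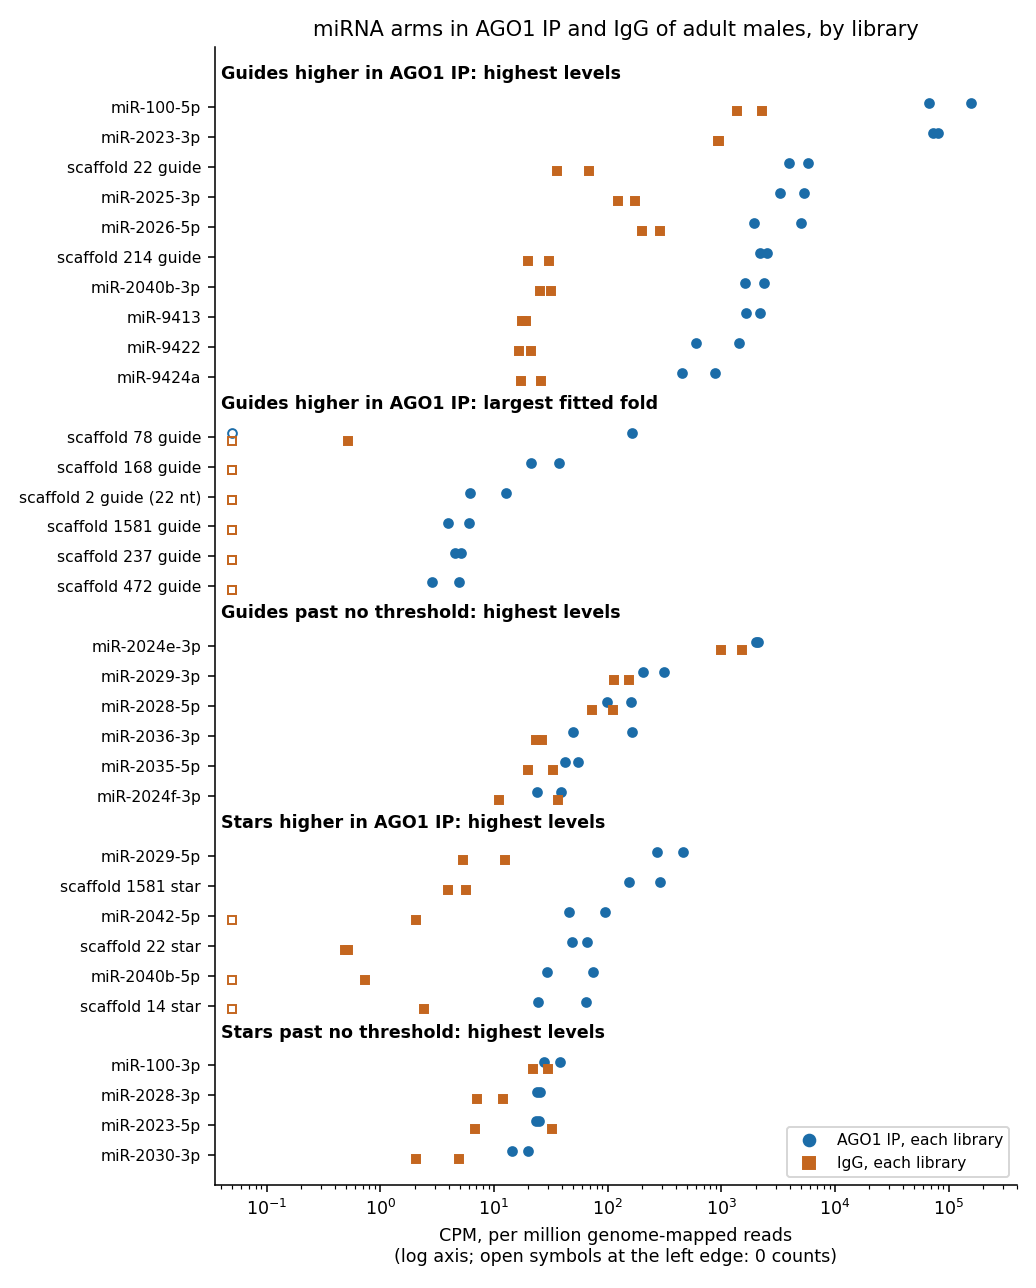
CPM of each library (log x axis) for the named arms in rows: blue circles are the 2 NveAGO1 IPs, orange squares the 2 IgG IPs, and open symbols at the left edge are libraries with 0 counts. miR-100-5p and miR-2023-3p lie farthest right, at 67759.7 to 157506 CPM with NveAGO1, whereas for miR-2028-5p and miR-100-3p the groups overlap.

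Among the called arms, 24 had 0 counts in both IgG libraries, 18 had 1 to 3 and 59 had more. For the 24, a fold can only be bounded, against a floor of 3 counts over both IgG libraries (0.498 CPM). The bounds ranged from 1.71-fold to 55.0-fold with a median of 3.79-fold, 5 arms reached at least 10-fold and 7 stayed under 3-fold, on 12 to 385 counts over both NveAGO1 libraries. The scaffold 168 guide had 21.3 and 37.3 CPM in the NveAGO1 IPs and 0 in both IgG IPs, which is at least 55.0-fold higher. Its level with NveAGO2 was 0.742 and 1.64 CPM.

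Another 4 newly annotated guides with 0 counts in IgG were among those with the largest fitted folds. The 22-base scaffold 2 guide (1211444 to 1211497, minus strand) had 6.19 and 12.7 CPM with NveAGO1, at least 17.4-fold above IgG. The scaffold 1581 guide (21761 to 21816, plus strand) had 6.07 and 3.94 CPM, at least 10.6-fold above IgG, and the scaffold 237 guide (364825 to 364883, plus strand) had 5.16 and 4.5 CPM, at least 9.86-fold above IgG. In DESeq2 on the same scale the scaffold 237 guide missed the threshold (adjusted p = 0.0635). The scaffold 472 guide (84514 to 84567, plus strand) had 2.86 and 4.87 CPM, at least 7.29-fold above IgG, and it missed the threshold without the first IgG library (adjusted p = 0.0506). In each of these both NveAGO1 libraries held counts.

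One called guide rested on a single library. The scaffold 78 guide (888284 to 888338, plus strand), whose reads could also come from an identical copy, had 165 and 0 CPM in the NveAGO1 IPs and 0 and 0.519 CPM in the IgG IPs. The groups overlapped, and the log2 fold change of 8.66 ± 2.20 (adjusted p = 0.00131) became -3.22 without the first NveAGO1 library (adjusted p = 0.588) and had an adjusted p of 0.0577 without the first IgG library. The ratio of its pooled counts was 619, with a 95% counting interval of 111 to 24448. Of the 109 tested arms with at least 50 counts over both NveAGO1 libraries, 75 had replicates within 2-fold and 8 had replicates over 4-fold apart or with 1 at zero, this guide and miR-2037-3p among them.

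The guides with the highest levels in IgG were miR-100-5p, miR-2024e-3p, miR-2023-3p and miR-2026-5p. Only miR-2024e-3p of these 4 was past no threshold. It had 2087 and 2026 CPM in the NveAGO1 IPs, against 991 and 1513 CPM in the IgG IPs. The 2 NveAGO1 values lay above the IgG values by less than the spread the fit allows, with a log2 fold change of 0.72 ± 0.83 (adjusted p = 0.505). In the NveAGO2 IPs it had 22271 and 34439 CPM. miR-2024f-3p, which has the same seed and could share its reads, had 23.7 and 38.6 CPM with NveAGO1 and 11 and 36.9 CPM with IgG. These overlapped, and its log2 fold change of 0.39 ± 0.94 became -4.85 per miRNA count, and it turned to -0.24 without the first IgG library and to -0.0021 without the second NveAGO1 library.

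Another 5 guides were past no threshold. miR-2028-5p had 160.4 and 98.4 CPM with NveAGO1, against 112 and 72.2 CPM with IgG, overlapping groups with a log2 fold change of 0.49 ± 0.89 (adjusted p = 0.704). miR-2029-3p had 313 and 206 CPM with NveAGO1 and 115 and 155 CPM with IgG (log2 fold change 0.94 ± 0.89), and miR-2035-5p had 55.0 and 42.4 CPM with NveAGO1 and 19.7 and 32.7 CPM with IgG (0.90 ± 0.92). miR-2036-3p had 164 and 49.1 CPM with NveAGO1 and 23.4 and 26.5 CPM with IgG, where the groups did not overlap but the adjusted p was 0.0670 for a log2 fold change of 2.10 ± 0.97. It passed in DESeq2 on the same scale (adjusted p = 0.0231), in a fit of the 6 adult libraries (0.00546) and without the second NveAGO1 library (0.0388). miR-2024a-3p had 5.27 and 3.37 CPM with NveAGO1 and 4.87 and 11.4 CPM with IgG (log2 fold change -0.88 ± 0.95). With NveAGO2 these 5 guides had 135 to 7476 CPM, above the range of their NveAGO1 values. Per miRNA count miR-2024e-3p and all 5 were called lower, at -3.38 to -6.25 on the log2 scale. Per total sequenced read, a scale chosen after seeing the data, miR-2024e-3p, miR-2024f-3p, miR-2029-3p, miR-2035-5p and miR-2036-3p were called higher (adjusted p = 0.00222 to 0.0327). A p that misses the threshold does not show that a guide was absent from NveAGO1, since the SEs near 0.9 leave room for changes of several fold.

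**Figure D3:**
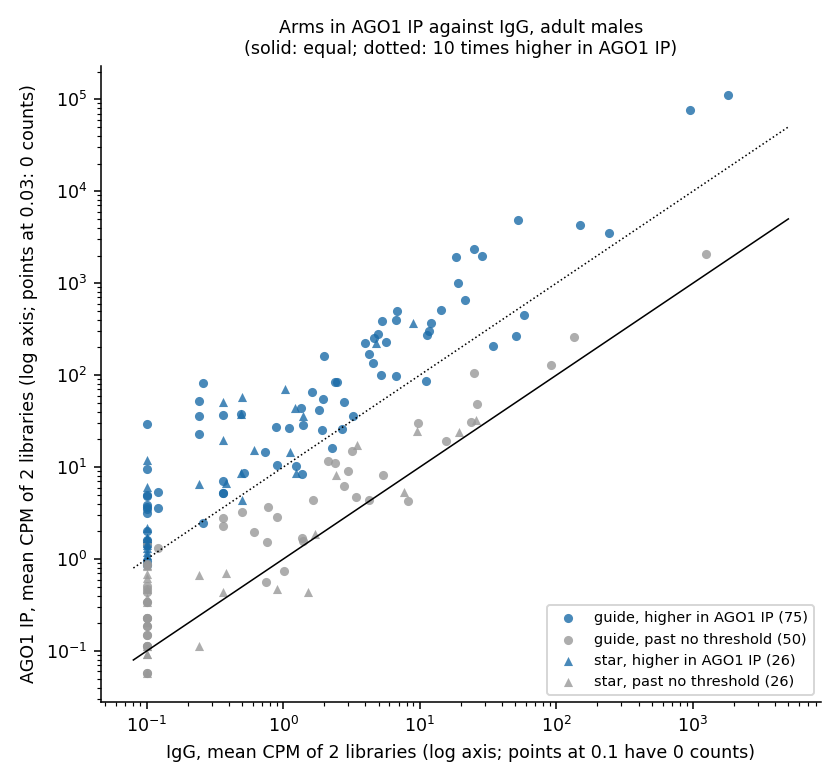
Mean CPM of the 2 NveAGO1 IPs (log y axis) against mean CPM of the 2 IgG IPs (log x axis) for the tested arms with any count in these libraries, with guides as circles, stars as triangles, blue for arms higher in the NveAGO1 IP and grey for the rest. The solid line is equality and the dotted line 10 times higher in the NveAGO1 IP; miR-100-5p and miR-2023-3p lie at the upper right above the dotted line, miR-2024e-3p lies just above the solid line, and points at 0.1 on the x axis have 0 IgG counts.

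Stars were recovered over IgG as well. Star arms in general were not picked by their own enrichment over IgG, but their miRNAs were kept in part by it. The stars miR-2029-5p and miR-2042-5p are also in the study's list of unique mature miRNAs. The study accepted newly annotated guides in part by their enrichment over IgG. It also dropped earlier miRNAs in part for lacking that enrichment. The ratios of newly annotated and known guides, and of their stars, are therefore not independent of how these miRNAs were listed. miR-2029-5p had the highest level, 459.7 and 272 CPM in the NveAGO1 IPs against 5.36 and 12.5 CPM in the IgG IPs. Every NveAGO1 value was above every IgG value, and the log2 fold change was 5.38 ± 1.10 (adjusted p = 0.000151), although per miRNA count it was -0.0015. The scaffold 1581 star had 153 and 290.4 CPM with NveAGO1 and 3.90 and 5.71 CPM with IgG, a log2 fold change of 5.54 ± 1.27, but its sequence is nearly the same as that of the scaffold 169 guide and their reads could not be told apart.

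The 4 stars with few IgG counts made up the rest of the 6 most abundant. miR-2042-5p had 45.6 and 94.5 CPM in the NveAGO1 IPs and 0 and 2.08 CPM in the IgG IPs (log2 fold change 6.35 ± 1.34, adjusted p = 0.000186). The scaffold 22 star had 48.7 and 66.2 CPM with NveAGO1 and 0.487 and 0.519 CPM with IgG, a ratio of pooled counts of 111 with a 95% counting interval of 37.9 to 540.2. For miR-2040b-5p, with 73.9 and 29.2 CPM with NveAGO1 and 0.731 and 0 CPM with IgG, that ratio was 114 (39.0 to 556). These 3 had NveAGO1 values many times above any IgG value. The scaffold 14 star (1012032 to 1012087, minus strand, in an intron) had 24.4 and 64.3 CPM with NveAGO1 and 2.44 and 0 CPM with IgG, a log2 fold change of 4.94 ± 1.27 that was -0.19 per miRNA count.

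The most abundant stars that passed no threshold included those of miR-100 and miR-2023. miR-100-3p, the star of miR-100, had 37.8 and 27.6 CPM in the NveAGO1 IPs, against 29.7 and 21.8 CPM in the IgG IPs. These overlapped, with a log2 fold change of 0.34 ± 1.04 (adjusted p = 0.860). miR-2023-5p, the star of miR-2023, had 25 and 23.2 CPM with NveAGO1 and 32.2 and 6.75 CPM with IgG, a log2 fold change of 0.29 ± 1.02 that turned to -0.42 without the second IgG library. For miR-2028-3p (23.7 and 25.3 CPM with NveAGO1, 7.07 and 11.9 CPM with IgG) and miR-2030-3p (20 and 14.4 CPM with NveAGO1, 4.87 and 2.08 CPM with IgG) the NveAGO1 values were above the IgG values, but the log2 fold changes of 1.38 ± 0.96 and 2.26 ± 1.0 did not pass (adjusted p = 0.243 and 0.0549). miR-2030-3p passed in DESeq2 on the same scale (adjusted p = 0.00839), with either other filter on low counts (0.0420 and 0.0467) and in fits of the 6 adult libraries (0.0312) or of the 4 compared (0.0479). Per miRNA count these 4 stars were called lower, at -3.08 to -5.0.

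Both arms were tested for 62 miRNAs. Guide and star were both higher than IgG in 14, the guide alone passed in 20, the star alone in 12 and neither in 16, and the log2 fold change of the star exceeded that of the guide in 27. For 7 guides the study's list of unique mature miRNAs does not hold the arm that its table of guides holds. Those of miR-2029, miR-2042 and miR-2047, where the star alone passed, and of miR-2024g, where the guide alone passed, are among these 7. An arm past the threshold and its partner not past it are not thereby shown to differ, so the star to guide ratio was tested within libraries, where the scale of a library cancels. This test covered 42 miRNAs with at least 5 star and 50 guide counts over the 4 libraries. The ratio was higher with NveAGO1 than with IgG for 4 (9.52%) and lower for 6 (14.3%). These minimums sum the libraries compared, so a miRNA could meet them through the NveAGO1 or the IgG IPs alone. In the higher group, the IgG IPs together held 4 star counts for miR-2024a, 4 for miR-2042 and 0 for the newly annotated miRNA. In the lower group, they held 4 guide counts for miR-2024g and 3 for the newly annotated miRNA. The other members met both minimums with IgG alone. With a minimum of 1 or 20 star counts, 4 were higher either way, and 6 and 5 lower. The higher group includes miR-2024a and the lower group miR-2024g, which share their 5p reads.

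For miR-2029, miR-2024a, miR-2042 and the scaffold 21 miRNA, the star to guide ratio was higher with NveAGO1 than with IgG, and in the first 3 the star also outnumbered the guide in both NveAGO1 IPs. miR-2029 had 4013 star and 2729 guide counts in the first NveAGO1 IP and 1451 and 1097 in the second, against 22 star and 471 guide counts in the first IgG IP and 24 and 298 in the second. The 5p arm thus held more counts than the 3p arm in both NveAGO1 IPs and far fewer in both IgG IPs, a log2 difference in ratio of 4.5 ± 0.87 (adjusted p = 5.91e-06). In the NveAGO2 IPs its star had 634 and 428 counts and its guide 28470 and 23855.

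miR-2024a and miR-2042 showed the same pattern with fewer counts. miR-2024a had 251 star and 46 guide counts in the first NveAGO1 IP and 247 and 18 in the second, against 4 star and 20 guide counts in the first IgG IP and 0 and 22 in the second (log2 difference 6.49 ± 1.06, adjusted p = 8.41e-08). miR-2042 had 398 star and 47 guide counts in the first NveAGO1 IP and 504 and 37 in the second, against 0 and 8 in the first IgG IP and 4 and 7 in the second (5.37 ± 1.30, adjusted p = 0.000300). In both miRNAs the star outnumbered the guide in each NveAGO1 IP and the guide outnumbered the star in each IgG IP. The reads of miR-2024a-5p could not be told apart from those of miR-2024g-5p, its copy, where this sequence is counted as the guide. For miR-2029 and miR-2042 the study's list of unique mature miRNAs holds the 5p arm, although its table of guides holds the 3p arm, so guide and star are names from that table and nothing more.

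The scaffold 21 star had 5.04 and 18.9 CPM in the NveAGO1 IPs and 0 in both IgG IPs, at least 20.7-fold higher, while its guide had 8.36 and 9.75 CPM with NveAGO1 and 3.90 and 2.08 CPM with IgG. The guide was above IgG in each library but its log2 fold change of 1.56 ± 1.10 did not pass (adjusted p = 0.248) and became -3.71 per miRNA count. The difference between star and guide was 7.41 ± 2.37 on the log2 scale (adjusted p = 0.00889), and it missed the threshold without the first IgG library (adjusted p = 0.270).

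The opposite shift was found for miR-100 and miR-2023. miR-100 had 330 star and 1374916 guide counts in the first NveAGO1 IP and 147 and 361428 in the second, against 122 star and 9308 guide counts in the first IgG IP and 42 and 2632 in the second (log2 difference -5.53 ± 0.97, adjusted p = 5.38e-07). For miR-2023, with 218 and 706937 in the first NveAGO1 IP and 124 and 386624 in the second against 132 and 3866 in the first IgG IP and 13 and 1833 in the second, the difference was -5.75 ± 1.18 (adjusted p = 1.66e-05). Stars of both were thus a smaller fraction of the miRNA in each NveAGO1 IP than in either IgG IP.

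The ratio was also lower for miR-2040a (-2.90 ± 0.82, adjusted p = 0.00288), miR-2030 (-2.63 ± 0.98, adjusted p = 0.0313), the scaffold 306 miRNA (-4.86 ± 1.53, adjusted p = 0.00854, on at most 4 counts of either arm in an IgG library) and miR-2024g (-6.02 ± 1.28, adjusted p = 3.05e-05). The last missed the threshold without the first IgG library (adjusted p = 0.139), and its guide is the sequence shared with miR-2024a-5p. For miR-2024g the study's list of unique mature miRNAs holds the 3p arm, which is the star by its table of guides. The same 5p reads thus enter both the higher ratio of miR-2024a and the lower ratio of miR-2024g, so these are not separate results. Stars exceeded guides in both NveAGO1 IPs for 5 of the 42 miRNAs and in both IgG IPs for 3.

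**Figure D4:**
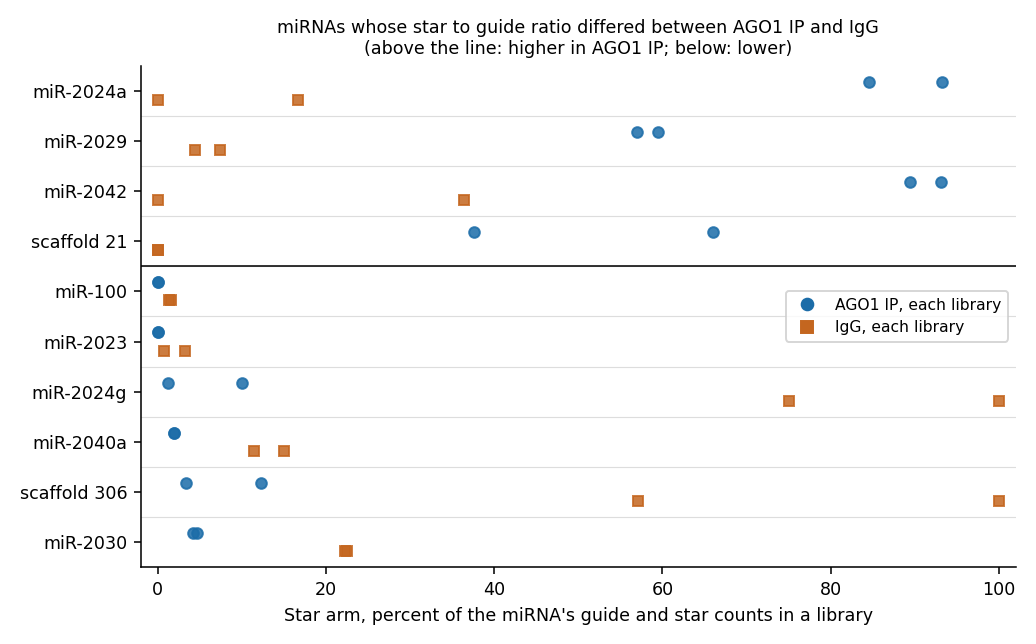
Star arm as a percent of the guide and star counts of a miRNA (x axis) in each NveAGO1 IP (blue circles) and each IgG IP (orange squares), for the 10 miRNAs in rows whose ratio differed. For the 4 miRNAs above the line, such as miR-2029, both NveAGO1 IPs lie to the right of both IgG IPs, and for the 6 below it they lie to the left.

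Over all miRNAs with both arms, stars were 0.406% and 0.709% of the counts in the NveAGO1 IPs (Wilson 95% intervals 0.398% to 0.415% and 0.692% to 0.727%), against 2.01% and 1.68% in the IgG IPs (1.84% to 2.20% and 1.45% to 1.96%). Both NveAGO1 libraries lay below both IgG libraries. The mean was 0.558% ± 0.214 with NveAGO1 and 1.85% ± 0.231 with IgG (SD, n = 2 each), a difference of -1.29 percentage points with a two-sided exact permutation p of 0.333, the smallest possible. miR-2029-5p supplied the most star counts, and without miR-2029 the shares were 0.235% and 0.546% with NveAGO1 and 1.96% and 1.49% with IgG.

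Guides that the study lists as preferring NveAGO1 had larger ratios to IgG than those it lists as preferring NveAGO2. Of 37 tested guides listed at over 70% for NveAGO1, 34 were higher than IgG with a median log2 fold change of 5.79. Of 57 listed for NveAGO2, 21 were higher with a median of 2.61, and of 11 without preference 8 were higher with a median of 4.24. Over all guides 75 of 134 (56%) were higher, with a median of 3.88. These lists were drawn up on these libraries among others, so the counts are not independent evidence of their direction. Called whichever single library was left out were 30 guides of the first list and 3 of the second. Per miRNA count the medians were 0.65, -2.30 and -1.01, and 0, 26 and 1 guides of these lists were lower. With arms at 0 in IgG set to their lower bound, the medians were 5.78, 2.20 and 3.88, against 3.40 for all guides.

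Newly annotated and known miRNAs were both among the arms recovered. Enrichment over IgG was part of how the study kept both kinds of guide. Higher than IgG were 49 of 84 newly annotated guides (median log2 fold change 3.92, or 3.44 with the bounds) and 26 of 50 known guides (3.79, or 2.71). Among stars these were 14 of 32 newly annotated (4.31, or 1.51 with the bounds) and 12 of 30 known (2.87, or 1.95). All of these shares lay near those over all guides (56%) and all stars (41.9%). Per miRNA count the medians of newly annotated and known guides were 0.00 and -1.04.

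**Figure D5:**
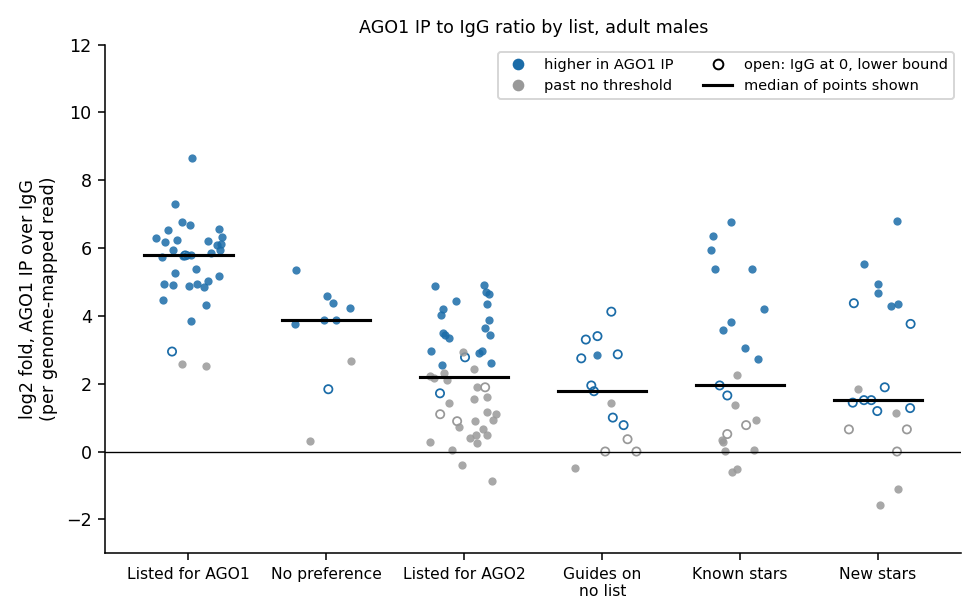
Log2 fold of the NveAGO1 IP over IgG per genome-mapped read (y axis) for each tested arm with counts, by list (x axis): blue points are arms higher in the NveAGO1 IP, grey points the rest, open circles arms at 0 in IgG drawn at their lower bound, and black bars the median of the points shown. The bar stands at 5.78 for guides listed for NveAGO1 and at 2.20 for those listed for NveAGO2, lists that were drawn up on these libraries among others; per miRNA count the second list has a median below 0.

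Guides were also described by their length and first base. Of guides with up to 21 bases 25 of 53 were higher, with a median log2 fold change of 3.49, and of those with 22 or more 50 of 81, with a median of 4.45. Guides of 23 bases had 22 of 28 higher and a median of 4.94, and those of 20 bases 6 of 15 and 2.55. Guides starting with U, the usual first base of a miRNA, had 45 of 82 higher (median 3.86), those with A 21 of 34 (4.52), with C 5 of 13 (2.67) and with G 4 of 5 (3.88). Over all guides the count was 75 of 134, and no list was tested against the rest. Per miRNA count the medians were -0.08 and -0.09 for the shorter and the longer guides and -0.17 for those of 23 bases. By the study's annotation of the precursor, 38 of 62 guides between genes were higher (median 4.25), 16 of 38 in introns (2.94), 10 of 16 in repeats (3.81) and 7 of 12 in exons (4.70). With arms at 0 in IgG set to their lower bound, these 4 medians were 3.57, 2.43, 3.81 and 3.01. By the same rule they were 2.89 and 3.59 for the shorter and the longer guides, and 3.13, 4.37, 2.67 and 3.88 for U, A, C and G.

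Seeds were almost all different. After repeated arms were left out, the guides had 133 distinct seeds, and 3 seeds were shared by 2 guides each. UGCACAU, shared by miR-2024e-3p and miR-2024f-3p, had neither guide higher than IgG, and CACAAAG had both of its guides higher, the newly annotated guides of scaffolds 128 and 189. The scaffold 189 guide had 179 and 92.1 CPM with NveAGO1, against 4.87 and 4.16 CPM with IgG, and the scaffold 128 guide 64.7 and 36.9 CPM with NveAGO1, against 1.95 and 3.64 CPM with IgG. Guides of a pair with nearly the same sequence could share reads, so these are not separate measurements.

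Adult males were then set against the earlier stages, in which 56 arms in early planulae (28.6%) and 43 in primary polyps (21.9%) were higher with NveAGO1 than with IgG. Lower with NveAGO1 than with IgG were 5 of the 196 arms in early planulae and 14 in primary polyps, against 0 in adult males. Of the 101 arms called in adult males, 38 were called in early planulae too, 37 were called in primary polyps and 30 at both stages. The 56 called in adult males alone are not shown to differ by that count, so the ratio itself was compared between stages. It was higher in adult males than in early planulae for 11 arms (5.61%) and lower for 0 (7 lower at an unadjusted p under 0.05 in edgeR, and 1 lower in DESeq2 after adjustment). Against primary polyps it was higher for 2 arms (1.02%) and lower for 0 (0 at an unadjusted p under 0.05 in edgeR, and 0 in DESeq2 on the same scale after adjustment). DESeq2 on the same scale called 18 arms higher against early planulae and 22 against primary polyps. Per miRNA count the differences of these 13 edgeR arms kept their direction, and 29 arms were lower in adult males than in early planulae.

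miR-9413 showed the smallest p against early planulae. It had 1656 and 2177 CPM with NveAGO1 and 17.8 and 19.2 CPM with IgG in adult males, and 0.173 and 0.585 CPM with NveAGO1 and 0.940 and 16.4 CPM with IgG in early planulae. It was thus above IgG in adult males and below IgG in early planulae, a log2 difference between the ratios of 11.14 ± 1.77 (adjusted p = 1.71e-05). The levels with NveAGO1 in early planulae were close to 3 counts, which correspond to 0.259 and 0.292 CPM in those libraries.

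miR-2023-3p differed in the same direction at high counts. In early planulae it had 319 and 147 CPM with NveAGO1, against 98.5 and 1029 CPM with IgG, where the IgG libraries lay on either side of the NveAGO1 libraries. The log2 difference between the stages was 7.61 ± 1.27 (adjusted p = 1.71e-05). miR-100-5p had 2644 and 1953 CPM with NveAGO1 and 309.7 and 3362 CPM with IgG in early planulae, likewise with 1 IgG library above and 1 below. Its difference of 5.63 ± 1.31 (adjusted p = 0.00234) was called in 6 of 8 fits that left out 1 library. Without the second IgG library of early planulae 7 arms differed between the stages, and without the first 19 did.

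Against primary polyps the 2 arms were miR-9417 and the scaffold 870 guide (18662 to 18715, minus strand, in an intron). miR-9417 had 21.9 and 16.7 CPM with NveAGO1 and 19.0 and 11.9 CPM with IgG in adult males, and 3.35 and 1.46 CPM with NveAGO1 and 78.9 and 107 CPM with IgG in primary polyps. Its ratio was thus near equality in adult males, and the difference (log2 5.61 ± 1.40, adjusted p = 0.0240) came with a level below IgG in polyps. The scaffold 870 guide had 42.0 and 69.4 CPM with NveAGO1 and 3.41 and 0.519 CPM with IgG in adult males, and 3.05 and 0.813 CPM with NveAGO1 and 24.1 and 4.21 CPM with IgG in primary polyps (7.48 ± 1.76, adjusted p = 0.0208). miR-9417 was called in 2 of 8 fits with 1 library left out and the scaffold 870 guide in 1, and the count of arms ranged from 0 to 29, the highest without the second IgG library of primary polyps. In primary polyps miRNAs were nearly all of the mapped reads with NveAGO1 (99% and 101%), and the part of this in the differences was not tested.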

How the data were processed

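The deposited IP table holds raw counts per miRNA arm, which the authors made by trimming reads with cutadapt and counting them on precursors with the mirDeep2 quantifier at default settings. The version of cutadapt is not given in the sources used here. The table was used as deposited. Levels are counts per 1000000 genome-mapped reads, from the study's depth list. A GEO field gives the same antibody for IgG libraries, and titles separated them. Tests covered 196 arms, those reaching 10 or more counts in 2 or more of 18 libraries, after 3 arms that repeat another in all libraries were left out. Of all arms, 28 have a near-identical arm (at most 2 mismatches over at least 17 bases) and may share reads. 0 sample columns were left unused, and the knockdown table was not used.

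edgeR 4.0.16 (quasi-likelihood, 9 groups, 9 residual degrees of freedom) in R 4.3.3 was the test, with library sizes set to genome-mapped reads and Benjamini-Hochberg adjustment over all arms (threshold 0.05). Star to guide ratios used both arms as columns with the library as block, and stage differences used the interaction contrast. DESeq2 1.42.0 served for alternatives, and limma 3.58.1 was loaded by edgeR. Exact tests and figures used scipy 1.17.1 and matplotlib 3.10.9 in Python 3.11.15, with numpy 2.4.6 and pandas 2.3.3. Simulated data were used to try the edgeR and DESeq2 fits on genome-mapped reads, the early planula interaction and the star to guide fit. The other settings were not simulated. Alternatives covered the library scale, tool, filters, samples in the fit, duplicate arms, a replicate block and leaving out each library.

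Named were the 10 called guides with the highest NveAGO1 level, the 6 with the largest fitted fold (at least 50 counts), the 6 most abundant guides not called, the 4 highest in IgG, 6 called and 4 uncalled stars, up to 4 miRNAs per direction for ratios, 3 arms for stages, and miRNAs the paper names; the remaining arms named were chosen after their values were seen. Members and lists were chosen with earlier results of these data known.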

Additional observations from a re-analysis of the deposited data

Results flagged for a closer look

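The arms given here are those whose NveAGO1 to IgG ratio differed between adult males and an earlier stage by a test of the difference itself (edgeR interaction contrast, adjusted p under 0.05), and all values are differences of log2 fold changes, adult males minus the earlier stage, with their SE. Against early planulae, 7 arms passed in each of the 8 fits that left out 1 library. These were miR-9413 (11.14 ± 1.77), the scaffold 214 guide (9.38 ± 1.54), miR-9422 (9.82 ± 1.62), miR-2023-3p (7.61 ± 1.27), the scaffold 22 guide (9.30 ± 1.62), miR-9424a (8.74 ± 1.71) and the scaffold 21 star (12.20 ± 2.56). The scaffold 21 star had 0 counts in both adult IgG libraries, so its value depends on the fit and is no bound.

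Another 4 arms passed in fewer of these fits, miR-100-5p (5.63 ± 1.31) and miR-9442 (7.72 ± 1.84) in 6 of 8, the scaffold 14 star (6.25 ± 1.78) in 3 and the scaffold 15 guide (5.40 ± 1.6) in 2. Against primary polyps the scaffold 870 guide (7.48 ± 1.76) passed in 1 of 8 and miR-9417 (5.61 ± 1.40) in 2. The ratio in early planulae was below 0 on the log2 scale for 9 of the 11 arms, and the exceptions were miR-100-5p (0.32) and the scaffold 15 guide (0.47). The second IgG library of early planulae held 0.724% miRNA counts, against 0.209% in the first, and its part in these differences was tested only by leaving it out, when 7 arms passed.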

How the results depend on the processing

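Counts of arms higher with NveAGO1 depended on the library scale and on single libraries. DESeq2 with its own size factors called 43 arms higher and 21 lower, TMM factors 53 and 4, and the sum of miRNA counts 0 and 42. For guides these settings called 34, 42 and 0 higher, and for stars 9, 11 and 0. Leaving out 1 library at a time gave 60 (without the first IgG library) to 88 arms, 45 to 67 guides and 15 to 22 stars, with 0 arms lower, and 15 stars were called without the first and also without the second IgG library. Against early planulae, DESeq2 called 18 arms with a higher ratio in adult males (17 with its own size factors) and leaving out a library gave 7 (without the second IgG library of early planulae) to 19 (without the first). Lower ratios numbered 1 and 14 in these DESeq2 fits, 4 with TMM factors and 29 per miRNA count. Against primary polyps DESeq2 called 22 higher (5 higher and 10 lower with its own size factors), a filter of 1 count gave 1, total sequenced reads gave 0 and leaving out a library gave 0 to 29, with the highest count when IgG library 2 of primary polyps was dropped. No label says whether libraries with the same replicate number share a batch. Same-numbered NveAGO1 and IgG deviations correlated at -0.06. With 2 replicates per group, both same-numbered pairs give this value and the other pairings give 0.06 by construction. This 1 value cannot show whether libraries share a batch. The scaffold 78 guide had 0 counts in the second adult library with NveAGO1 and also with NveAGO2. With a replicate block 96 arms, 72 guides and 24 stars were higher, 95 of the 96 among the 101. Total sequenced reads, chosen as a scale after seeing the data, called 131 arms higher. Of 854 single-arm results under alternatives, 715 kept their direction and side of the threshold, 23 gained a call, 57 lost one and 59 changed sign.

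Signs changed per miRNA count for 23 named arms on the log2 scale, miR-2025-3p (-0.50), miR-2026-5p (-1.61), miR-2024e-3p (-4.59), miR-9424a (-0.25), miR-2030-5p (-0.41), miR-2029-5p (-0.0015), miR-2040a-3p (-2.82), miR-2029-3p (-4.42), miR-2028-5p (-4.87), miR-2036-3p (-3.38), miR-9446 (-0.076), the scaffold 870 guide (-0.51), miR-2035-5p (-4.45), the scaffold 14 star (-0.19), miR-100-3p (-5.0), miR-2024f-3p (-4.85), miR-2028-3p (-3.91), miR-2023-5p (-4.99), miR-9417 (-5.02), miR-2030-3p (-3.08), the scaffold 21 guide (-3.71), miR-2042-3p (-4.07) and miR-2024g-3p (-5.43). With TMM factors they changed for 13, miR-2024e-3p (-1.48), miR-2029-3p (-1.23), miR-2028-5p (-1.64), miR-2036-3p (-0.032), miR-2035-5p (-1.28), miR-100-3p (-1.80), miR-2024f-3p (-1.84), miR-2028-3p (-0.80), miR-2023-5p (-1.81), miR-9417 (-1.82), the scaffold 21 guide (-0.59), miR-2042-3p (-0.98) and miR-2024g-3p (-2.03). With the size factors of DESeq2 they changed for 15, miR-2024e-3p (-1.79), miR-2040a-3p (-0.14), miR-2029-3p (-1.57), miR-2028-5p (-2.10), miR-2036-3p (-0.43), miR-2035-5p (-1.60), miR-100-3p (-2.24), miR-2024f-3p (-2.05), miR-2028-3p (-1.11), miR-2023-5p (-2.37), miR-9417 (-2.28), miR-2030-3p (-0.38), the scaffold 21 guide (-1.05), miR-2042-3p (-1.33) and miR-2024g-3p (-2.59). With total sequenced reads 2 arms turned positive, miR-2040a-5p (0.72) and miR-2024a-3p (0.55). When 1 library was left out, the scaffold 78 guide ranged from -3.22 to 11.97, miR-2024f-3p from -0.24 to 1.5, miR-2023-5p from -0.42 to 1.83 and miR-2024g-3p from -1.69 to 1.85. Beyond the construction of each scale, the cause of these changes was not tested. IgG depth limits low folds, and 3 counts over both IgG libraries correspond to 0.498 CPM.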
